A study of Mus musculus with 11 samples.

Results

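Collagens are the triple-helical proteins that make up most of the fibrous matrix of an organ, and their genes were followed here across livers of 4 mouse genotypes. A gene was taken as a collagen when its symbol had the form of a collagen alpha chain (Col, a type number, a, a chain number) and when its probe set on the array was annotated to exactly 1 gene. This gave 46 probe sets and 44 genes, out of 19938 genes with such a probe set and 35556 probe sets in all. Where a gene had 2 probe sets, as Col6a5 and Col6a6 had, the one with the higher mean over the 11 arrays stood for it. By the structure of the protein, 11 genes encode fibrillar collagens, 6 the type IV collagens of basement membranes, 3 short-chain network collagens, 9 fibril-associated collagens (FACIT), 9 beaded-filament and anchoring collagens, 2 multiplexins and 4 transmembrane collagens.

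The arrays measured RNA from whole liver of male C57/BL6 mice that were 8 to 9 weeks old and fed chow. The 3 wild-type samples (WT) were compared with 3 samples from NemoΔhepa mice (Nemo KO), in which a loxP-flanked NEMO gene is deleted in hepatocytes. In 2 further samples NemoΔhepa was crossed with constitutive TRAIL-/- (Nemo/TRAIL dKO), and in 3 with constitutive TNFR1-/- (Nemo/TNFR1 dKO), so that both double knockouts carry the Nemo deletion as well. The labels name no driver of the deletion, which leaves Nemo in the other cells of the liver, whereas the labels give the other 2 alleles as constitutive. NEMO, encoded by Ikbkg, is the regulatory subunit of the kinase that activates NF-κB, TRAIL is a death ligand and TNFR1 a receptor for tumour necrosis factor. The series asks how these death receptor pathways bear on the liver disease of mice without Nemo in hepatocytes.

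In a healthy liver most fibrillar collagen lies in portal tracts and around central veins, and a thin type IV and type VI matrix lines the sinusoids. After injury hepatic stellate cells and portal fibroblasts become the main makers of type I and type III collagen, which is the process of fibrosis. Each chain is hydroxylated and folded in the endoplasmic reticulum, trimmed outside the cell, and then crosslinked into fibrils or networks.

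Values are log2 expression, so that a difference of 1 is a doubling. Differences come from 1 linear model over all 11 arrays with empirical Bayes moderation (limma), are given ± SE, and were called when the Benjamini-Hochberg adjusted p over all probe sets of a comparison was below 0.05. The labels do not say that the replicates are separate animals, so all p-values refer to the spread among these samples and nothing wider. With 2 or 3 arrays per genotype, precision is limited. One array stood apart: pancreatic acinar markers (8 measured) averaged 11.46 in WT replicate 3, 5.93 and 5.79 in the other WT arrays and 5.51 to 5.73 in the Nemo-deficient arrays. Hepatocyte markers (6 measured) averaged 13.36 to 13.46 in every array, and 0 were called against WT, also at an unadjusted p below 0.05. Ikbkg was called lower than WT in Nemo/TNFR1 dKO (-0.45 ± 0.08, adjusted p = 0.00818) and Nemo/TRAIL dKO (-0.41 ± 0.09, adjusted p = 0.0239), and in Nemo KO its difference was -0.24 ± 0.08 (adjusted p = 0.106). Tnfrsf1a, which encodes TNFR1, was not lower in Nemo/TNFR1 dKO than in WT (0.07 ± 0.09, adjusted p = 0.670), and it differed from Nemo KO there by -0.27 ± 0.09 (adjusted p = 0.586). Tnfsf10, which encodes TRAIL, differed from WT by -0.65 ± 0.19 in Nemo/TRAIL dKO (adjusted p = 0.0749). Which exons were deleted, and whether the probes lie in them, is unstated in the labels. The RNA of Tnfrsf1a and Tnfsf10 therefore does not check the double knockouts, and each genotype is named as labelled.

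Collagen RNA was higher in livers without Nemo in hepatocytes, and the rise lay in a minority of the family. In Nemo KO 10 of the 44 genes were called higher than WT and 0 lower (1 of the uncalled genes below WT, Col27a1, had an adjusted p = 0.0541). Of all probe sets 6.08% were called higher and 3.21% lower in that comparison, 9.29% together. In Nemo/TNFR1 dKO 10 genes were called higher and 1 lower (all probe sets 5.83% and 3.35%, together 9.18%), and in Nemo/TRAIL dKO 7 higher and 1 lower (all probe sets 4.91% and 2.64%, together 7.55%). At an unadjusted p below 0.05 there were 17, 15 and 16 genes, in either direction, in Nemo KO, Nemo/TNFR1 dKO and Nemo/TRAIL dKO. The share of all probe sets at that threshold was not counted, so these numbers do not show an excess. The median collagen gene was not raised. Its difference from WT was -0.087 in Nemo KO, -0.049 in Nemo/TNFR1 dKO and -0.063 in Nemo/TRAIL dKO. In the same order, the medians of all probe sets were -0.054, -0.039 and -0.045. By mean over the arrays, 32 of the 44 genes lay above the median of all probe sets (6.29). Only 5 lay above the upper quartile (8.11). Which of the 44 are expressed in liver was not tested, so this median does not describe expressed collagens alone.

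The same 7 genes were called higher in all 3 genotypes: Col1a1, Col1a2, Col3a1, Col4a1, Col4a2, Col14a1 and Col6a3. Col5a2 and Col6a2 were called in Nemo KO and Nemo/TNFR1 dKO, Col6a1 in Nemo KO alone and Col8a1 in Nemo/TNFR1 dKO alone, which does not show that the genotypes differ. Col27a1 was called lower in both double knockouts, and 32 genes were called in no genotype against WT. The 3 comparisons share their WT arrays, and their values are therefore given side by side without a test of overlap. In whole liver, a change in the number of cells of a type and a change in RNA per cell cannot be told apart.

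The Nemo/TRAIL dKO counts rested on few arrays. Of its 8 calls in either direction, 0 were left without Nemo/TRAIL dKO replicate 1, which leaves that group with 1 array whose spread is taken from the other groups. There were 4 without Nemo/TRAIL dKO replicate 2, 4 without WT replicate 1 and 5 without WT replicate 2. Leaving out single arrays gave 8 to 12 calls in Nemo KO and 8 to 14 in Nemo/TNFR1 dKO. With only the 2 groups compared in the model, 4 calls were left in Nemo/TRAIL dKO (Col4a1, Col4a2, Col14a1 and Col6a3). In Nemo/TNFR1 dKO 7 of 11 were then left, without Col3a1, Col27a1, Col8a1 and Col6a2.

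**Figure D1:**
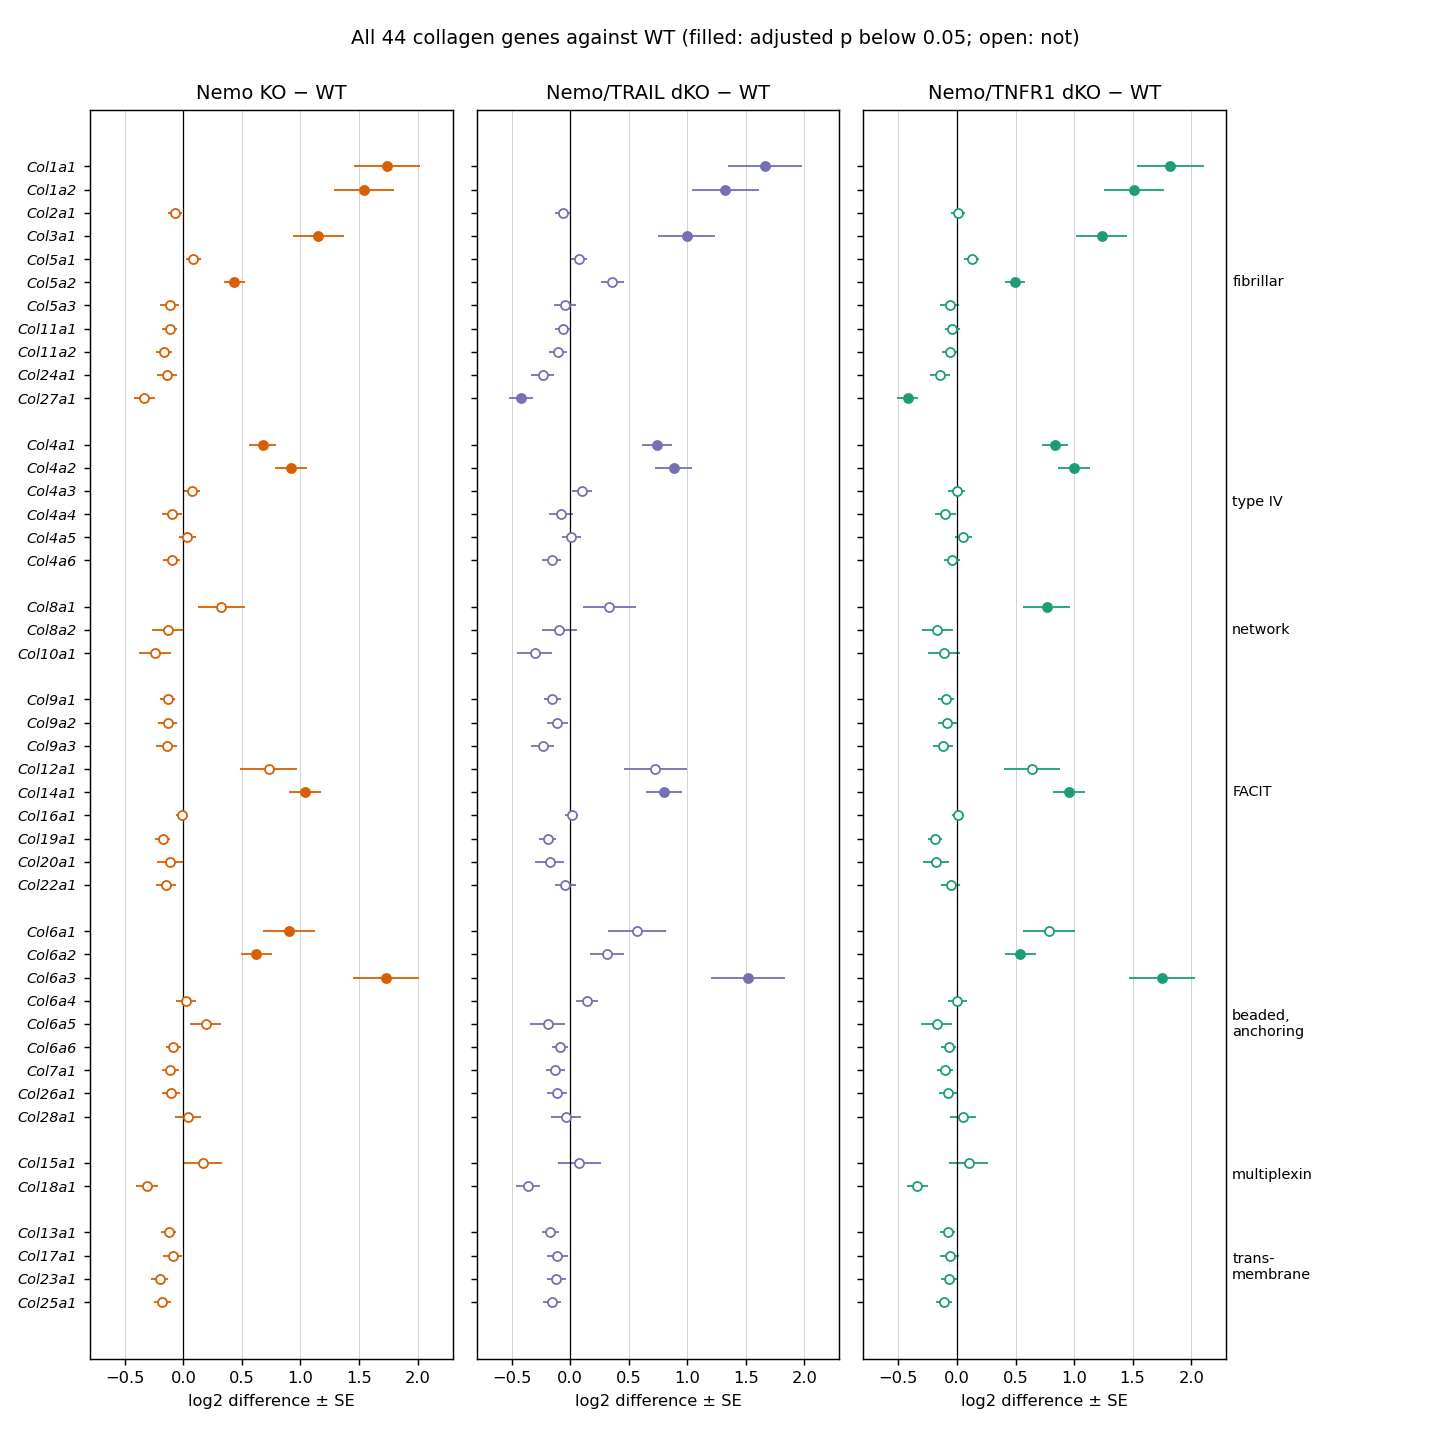
Log2 difference from WT (horizontal axis, ± SE) of all 44 collagen genes by structural class (vertical axis), with 1 panel per genotype; filled points have an adjusted p below 0.05. For Col1a1 the filled points stand at 1.74 in Nemo KO, 1.82 in Nemo/TNFR1 dKO and 1.66 in Nemo/TRAIL dKO, while the median of all 44 genes lies at -0.087, -0.049 and -0.063.

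Among the fibrillar collagens, the chains of type I and type III collagen had the largest rises. Col1a1, the alpha1 chain of type I collagen, measured 7.31, 7.45 and 8.23 in WT, 9.29, 9.47 and 9.46 in Nemo KO, 8.88, 9.80 and 9.78 in Nemo/TNFR1 dKO, and 9.48 and 9.18 in Nemo/TRAIL dKO. The lowest Nemo-deficient array, Nemo/TNFR1 dKO replicate 1, lay 0.65 above the highest WT array, WT replicate 3. The difference from WT was 1.74 ± 0.28 in Nemo KO (3.34-fold, adjusted p = 0.00505), 1.82 ± 0.28 in Nemo/TNFR1 dKO (3.54-fold, adjusted p = 0.00398) and 1.66 ± 0.32 in Nemo/TRAIL dKO (3.17-fold, adjusted p = 0.0125). Without WT replicate 3 these differences were 2.02, 2.11 and 1.95, all still called.

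Col1a2, the alpha2 chain of the same trimer, followed Col1a1. It measured 7.22, 7.40 and 7.94 in WT, 8.99, 9.05 and 9.14 in Nemo KO, 8.42, 9.35 and 9.32 in Nemo/TNFR1 dKO, and 8.97 and 8.71 in Nemo/TRAIL dKO. WT replicate 3 was again the highest WT array and Nemo/TNFR1 dKO replicate 1 the lowest of the others, 0.48 above it. The difference from WT was 1.54 ± 0.25 in Nemo KO (adjusted p = 0.00535), 1.51 ± 0.25 in Nemo/TNFR1 dKO (adjusted p = 0.00571) and 1.33 ± 0.28 in Nemo/TRAIL dKO (adjusted p = 0.0209). Within each array, the mean rise of Col1a1 exceeded that of Col1a2 by 0.20 in Nemo KO, 0.31 in Nemo/TNFR1 dKO and 0.34 in Nemo/TRAIL dKO. The SDs over arrays were 0.06, 0.0051 and 0.03, and 0.13 in WT. A two-sided exact permutation test against WT gave p = 0.1, 0.1 and 0.2 in the same order. The smallest p that so few arrays allow is 0.1, so the test cannot show that the chains rose by different amounts.

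Col3a1 encodes the only chain of type III collagen, which forms the fine reticulin fibres of liver. Its values were 7.35, 7.23 and 7.93 in WT, 8.59, 8.63 and 8.74 in Nemo KO, 8.27, 9.06 and 8.89 in Nemo/TNFR1 dKO, and 8.53 and 8.47 in Nemo/TRAIL dKO. All Nemo-deficient arrays lay above all WT arrays, with a gap of 0.34. The rise was 1.15 ± 0.22 in Nemo KO (adjusted p = 0.0103), 1.24 ± 0.22 in Nemo/TNFR1 dKO (adjusted p = 0.00731) and 0.997 ± 0.24 in Nemo/TRAIL dKO (adjusted p = 0.0374). Of the 11 fits without 1 array, 3 kept this call in Nemo/TRAIL dKO, with adjusted p up to 0.187 without Nemo/TRAIL dKO replicate 1.

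The bases before the transcription start are shown for 2 of these genes because both were called in every genotype although the sequences share no searched motif. They come from the RefSeq promoter table (GRCm38.p6), which held windows for 35 of the 44 collagen genes and for 5 of the 7 genes called in all 3 genotypes. Each sequence runs from 250 bases to 1 base before the annotated start, 5′ to 3′ on the plus strand, at chr6:4505368-4505617 for Col1a2 and chr1:45311288-45311537 for Col3a1. Capitals mark matches, on either strand, to the CCAAT box, to the TATA box (TATAAA), to the GC box (GGGCGG) or to the AP-1 motif (TGANTCA).
Col1a2: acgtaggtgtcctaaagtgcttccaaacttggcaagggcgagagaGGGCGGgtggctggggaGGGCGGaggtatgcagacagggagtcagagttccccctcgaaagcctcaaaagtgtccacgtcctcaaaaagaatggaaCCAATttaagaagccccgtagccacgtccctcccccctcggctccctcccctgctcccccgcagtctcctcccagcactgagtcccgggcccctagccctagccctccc
Col3a1: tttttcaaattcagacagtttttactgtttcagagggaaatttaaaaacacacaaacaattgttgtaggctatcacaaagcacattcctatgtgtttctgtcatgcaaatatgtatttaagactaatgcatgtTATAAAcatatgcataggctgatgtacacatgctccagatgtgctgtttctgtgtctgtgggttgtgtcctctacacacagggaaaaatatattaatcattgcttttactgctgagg
The Col1a2 stretch holds GGGCGG at 205 and at 188 bases before the start and CCAAT at 109 bases before it. The Col3a1 stretch holds TATAAA at 117 bases before the start and none of the other motifs. In the full windows, which run on to 50 bases after the start, CCAAT was found in 3 of the 8 genes with a window that were called higher in at least 1 genotype, in 10 of the 27 other collagen genes (Col27a1 among them) and in 37.4% of all 32851 windows. For TATAAA the counts were 1 of 8, 4 of 27 and 13.6%, for GGGCGG 5 of 8, 17 of 27 and 35.7%, and for TGANTCA 1 of 8, 0 of 27 and 7.8%. A match of letters is not a measured binding site.

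Col5a2, a chain of the type V collagen that sets fibril diameter, changed less. It measured 6.09, 6.14 and 6.30 in WT, 6.66, 6.65 and 6.54 in Nemo KO, 6.52, 6.72 and 6.78 in Nemo/TNFR1 dKO, and 6.55 and 6.53 in Nemo/TRAIL dKO. The Nemo-deficient arrays all lay above the WT arrays, with a gap of 0.21. The difference was 0.44 ± 0.09 in Nemo KO (adjusted p = 0.0128), 0.49 ± 0.09 in Nemo/TNFR1 dKO (adjusted p = 0.00699) and 0.36 ± 0.10 in Nemo/TRAIL dKO (adjusted p = 0.0539). Col5a2 and Col3a1 are neighbours in the genome with no protein-coding gene between them. The partner chains of type V collagen did not pass the test: Col5a1 differed from WT by 0.08, 0.13 and 0.07 and Col5a3 by -0.12, -0.06 and -0.04 in Nemo KO, Nemo/TNFR1 dKO and Nemo/TRAIL dKO. Exactly equal deposited values occurred in 4 arrays for Col5a1 and in 3 for Col5a3. These differences therefore do not show that the partner chains were unchanged.

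Col27a1, a fibrillar collagen known from cartilage, was the only collagen called lower than WT. Its values were 8.06, 7.85 and 8.10 in WT, 7.79, 7.65 and 7.58 in Nemo KO, 7.67, 7.54 and 7.52 in Nemo/TNFR1 dKO, and 7.67 and 7.499 in Nemo/TRAIL dKO. Every Nemo-deficient array lay below every WT array. The difference was -0.42 ± 0.09 in Nemo/TNFR1 dKO (adjusted p = 0.0207), -0.42 ± 0.10 in Nemo/TRAIL dKO (adjusted p = 0.0384) and -0.33 ± 0.09 in Nemo KO (adjusted p = 0.0541). Both calls were lost without WT replicate 3 (-0.37 and -0.37, adjusted p = 0.0620 and 0.0916), but they did not rest on that array alone. Of the 11 fits without 1 array, 7 kept the Nemo/TNFR1 dKO call and 3 the Nemo/TRAIL dKO call. With only the 2 groups compared both were lost (limma, adjusted p = 0.0608 and 0.140). Array weights also lost the Nemo/TRAIL dKO call (adjusted p = 0.0526). The cartilage collagens of the fibrillar class, Col2a1, Col11a1 and Col11a2, were not called in any genotype, with differences from -0.16 to 0.01.

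**Figure D2:**
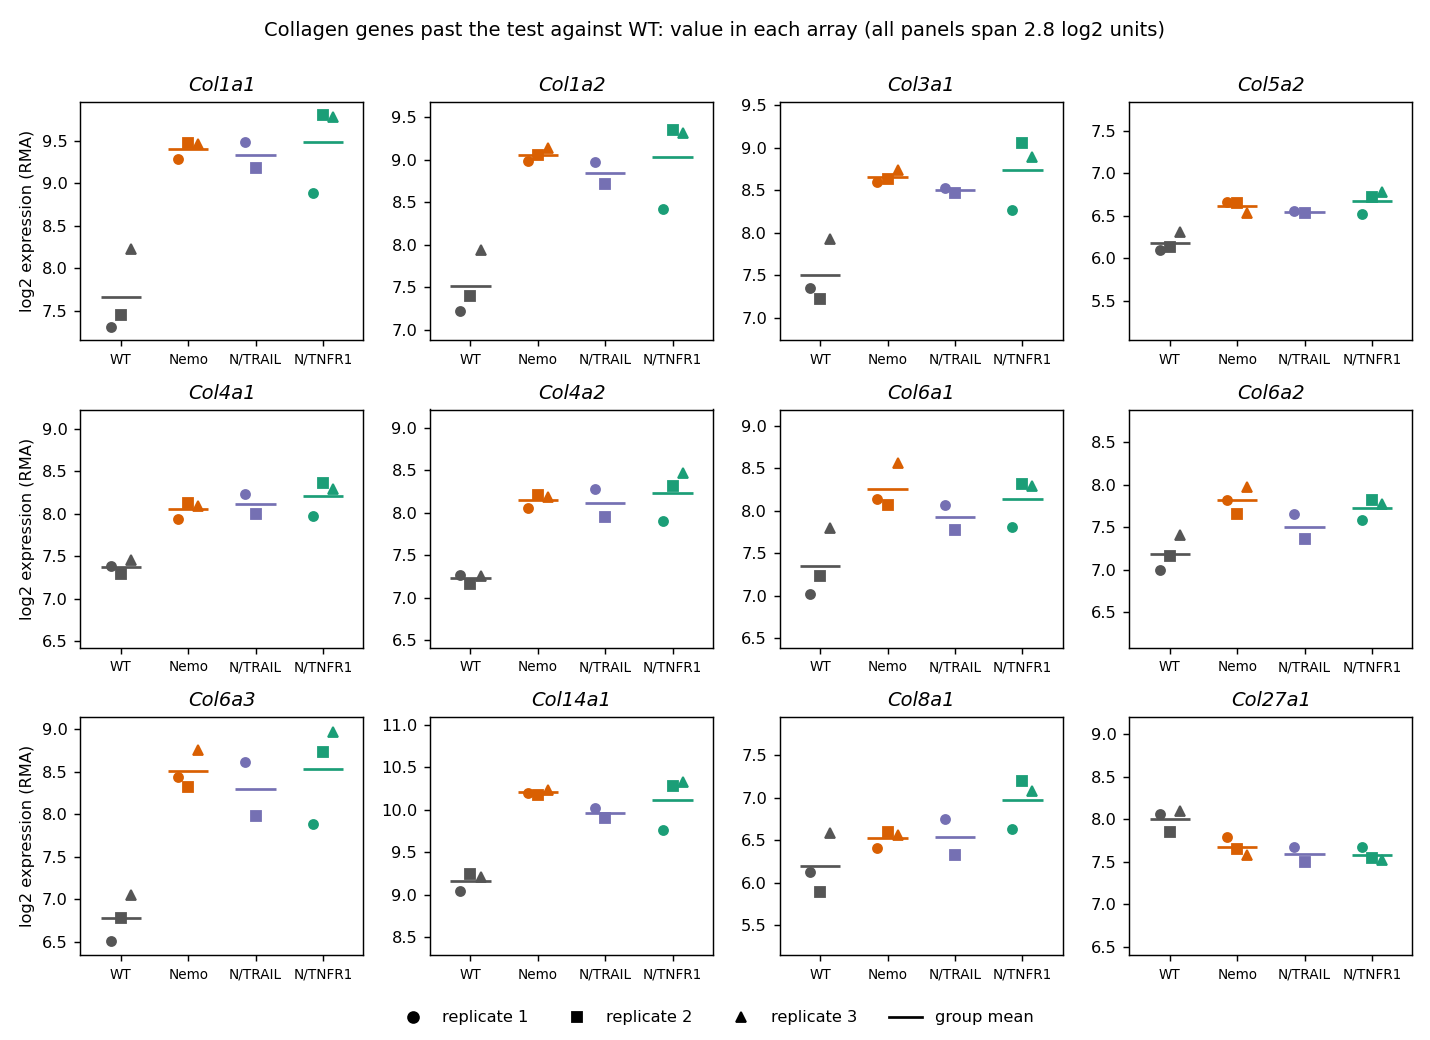
Log2 expression (vertical axis, each panel spanning 2.8 log2 units) of the 12 collagen genes called against WT, by genotype (horizontal axis; N stands for Nemo); symbols are replicates and lines are group means. WT replicate 3 is the highest WT array for Col1a1 at 8.23 and Nemo/TNFR1 dKO replicate 1 the lowest Nemo-deficient array at 8.88.

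Type IV collagen is the sheet-forming collagen of basement membranes. Its ubiquitous chains, encoded by Col4a1 and Col4a2, rose in every genotype. Col4a1 measured 7.38, 7.28 and 7.46 in WT, 7.93, 8.12 and 8.09 in Nemo KO, 7.97, 8.36 and 8.29 in Nemo/TNFR1 dKO, and 8.23 and 8.00 in Nemo/TRAIL dKO. The WT arrays lay close together here, and the lowest other array lay 0.48 above them. Col4a1 rose by 0.68 ± 0.11 in Nemo KO (adjusted p = 0.00579), 0.83 ± 0.11 in Nemo/TNFR1 dKO (adjusted p = 0.00223) and 0.74 ± 0.13 in Nemo/TRAIL dKO (adjusted p = 0.00789).

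Col4a2 measured 7.27, 7.16 and 7.26 in WT, 8.05, 8.20 and 8.18 in Nemo KO, 7.90, 8.31 and 8.47 in Nemo/TNFR1 dKO, and 8.28 and 7.94 in Nemo/TRAIL dKO. WT replicate 3 did not stand out for this gene, and the gap between WT and the other arrays was 0.64. The rise was 0.92 ± 0.14 in Nemo KO (1.89-fold, adjusted p = 0.00371), 0.999 ± 0.14 in Nemo/TNFR1 dKO (adjusted p = 0.00265) and 0.88 ± 0.16 in Nemo/TRAIL dKO (1.85-fold, adjusted p = 0.0094). For both genes the Nemo KO and Nemo/TNFR1 dKO calls were kept in all 11 fits without 1 array, and the Nemo/TRAIL dKO calls held in 10 of 11.

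Col4a1 and Col4a2 are known to be read in opposite directions from a shared start region, and their RefSeq windows overlap by 78 bases on opposite strands. The 30 bases from 48 to 19 before the Col4a2 start, at chr8:11312757-11312786 on the plus strand (GRCm38.p6), are shown for the matches they hold close to that start, a CCAAT match and a reversed GGGCGG match in capitals. This stretch lies only partly within the overlap. The reversed GGGCGG match lies outside the overlap, and so does most of the CCAAT match. On the strand of Col4a1 the stretch lies after that gene's start.
Col4a2: CCGCCCgaggagctccCCAATttgttggcg
The chains with restricted tissue distribution, Col4a3 to Col4a6, also lie in neighbouring pairs (Col4a3 with Col4a4, Col4a5 with Col4a6). None of the 4 was called in any genotype. Their differences from WT ran from -0.10 to 0.07 in Nemo KO, from -0.10 to 0.05 in Nemo/TNFR1 dKO and from -0.16 to 0.10 in Nemo/TRAIL dKO.

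Type VI collagen forms beaded microfilaments around cells from the chains of Col6a1, Col6a2 and Col6a3. Col6a3 rose about as much as Col1a1: it measured 6.52, 6.78 and 7.05 in WT, 8.44, 8.32 and 8.76 in Nemo KO, 7.88, 8.74 and 8.97 in Nemo/TNFR1 dKO, and 8.62 and 7.98 in Nemo/TRAIL dKO. No WT array came within 0.84 of any other. The rise was 1.73 ± 0.28 in Nemo KO (3.31-fold, adjusted p = 0.00522), 1.75 ± 0.28 in Nemo/TNFR1 dKO (3.36-fold, adjusted p = 0.00477) and 1.52 ± 0.32 in Nemo/TRAIL dKO (2.86-fold, adjusted p = 0.0184).

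The other chains of the trimer changed less. Col6a1 measured 7.02, 7.23 and 7.80 in WT, 8.14, 8.07 and 8.55 in Nemo KO, 7.80, 8.31 and 8.29 in Nemo/TNFR1 dKO, and 8.07 and 7.77 in Nemo/TRAIL dKO. Nemo/TRAIL dKO replicate 2 lay below WT replicate 3, and Nemo/TNFR1 dKO replicate 1 was level with it. The difference was 0.90 ± 0.22 in Nemo KO (adjusted p = 0.0343), 0.78 ± 0.22 in Nemo/TNFR1 dKO (adjusted p = 0.0596) and 0.57 ± 0.25 in Nemo/TRAIL dKO (adjusted p = 0.227). Without WT replicate 3 the Nemo/TNFR1 dKO difference was 1.01 and passed the test (adjusted p = 0.0199). Of 11 fits without 1 array, 6 kept the Nemo KO call, which had an adjusted p of 0.120 without Nemo KO replicate 3.

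Col6a2 measured 6.998, 7.16 and 7.41 in WT, 7.82, 7.65 and 7.97 in Nemo KO, 7.59, 7.82 and 7.78 in Nemo/TNFR1 dKO, and 7.65 and 7.36 in Nemo/TRAIL dKO. Only Nemo/TRAIL dKO replicate 2 fell within the WT range. It rose by 0.62 ± 0.13 in Nemo KO (adjusted p = 0.0166) and 0.54 ± 0.13 in Nemo/TNFR1 dKO (adjusted p = 0.0324), and the Nemo/TRAIL dKO difference was 0.32 ± 0.15 (adjusted p = 0.257). Of the 11 fits without 1 array, 8 and 6 kept those calls.

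Within each array the difference between Col6a3 and Col6a1 was larger than in WT by 0.83 in Nemo KO (SD over arrays 0.05, WT SD 0.16), 0.97 in Nemo/TNFR1 dKO (SD 0.30) and 0.95 in Nemo/TRAIL dKO (SD 0.24). Against Col6a2 it was larger by 1.10, 1.21 and 1.20, and all values of the Nemo-deficient arrays lay above those of WT. A two-sided exact permutation test gave p = 0.1 in each of these 6 comparisons with WT, which is the smallest p that so few arrays allow, so none could pass at 0.05. Col6a1 and Col6a2 are neighbours in the genome, and Col6a3 is not their neighbour. The remaining genes of the class, Col6a4, Col6a5, Col6a6, Col7a1, Col26a1 and Col28a1, differed from WT by -0.11 to 0.19 in Nemo KO and none was called in any genotype. Col7a1 encodes the anchoring fibril collagen of skin.

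Among the FACIT collagens, which sit on the surface of fibrils, Col14a1 rose in every genotype. It measured 9.05, 9.24 and 9.21 in WT, 10.20, 10.18 and 10.23 in Nemo KO, 9.75, 10.27 and 10.33 in Nemo/TNFR1 dKO, and 10.02 and 9.91 in Nemo/TRAIL dKO. The arrays of Nemo KO differed by less than 0.1 among themselves, and the gap to WT over all Nemo-deficient arrays was 0.52. Col14a1 rose by 1.04 ± 0.14 in Nemo KO (2.05-fold, adjusted p = 0.00186), 0.95 ± 0.14 in Nemo/TNFR1 dKO (adjusted p = 0.00282) and 0.80 ± 0.15 in Nemo/TRAIL dKO (adjusted p = 0.0127), and its Nemo KO adjusted p was the lowest of the family.

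Col12a1, the FACIT collagen closest to Col14a1 in structure, was not called and is given here after its values were seen. It measured 6.06, 5.88 and 6.20 in WT, 6.70, 6.69 and 6.94 in Nemo KO, 6.09, 6.97 and 7.005 in Nemo/TNFR1 dKO, and 7.06 and 6.49 in Nemo/TRAIL dKO. Of the Nemo-deficient arrays, only Nemo/TNFR1 dKO replicate 1 lay within the WT range. The differences were 0.73 ± 0.24, 0.64 ± 0.24 and 0.73 ± 0.27 in Nemo KO, Nemo/TNFR1 dKO and Nemo/TRAIL dKO (adjusted p = 0.0953, 0.144 and 0.152). Without that array all 3 passed (adjusted p = 0.0178, 0.00963 and 0.0327). Each passed in only 1 of the 11 fits without 1 array. The 7 other FACIT genes, Col9a1 to Col9a3, Col16a1, Col19a1, Col20a1 and Col22a1, were called in no genotype and differed from WT by -0.23 to 0.01.

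Col8a1, a short-chain network collagen of vessel walls, was called in 1 genotype. Its values were 6.13, 5.89 and 6.59 in WT, 6.41, 6.60 and 6.56 in Nemo KO, 6.63, 7.20 and 7.07 in Nemo/TNFR1 dKO, and 6.75 and 6.32 in Nemo/TRAIL dKO. The WT range overlapped Nemo KO and Nemo/TRAIL dKO but not Nemo/TNFR1 dKO, whose replicate 1 lay just above WT replicate 3. The difference was 0.77 ± 0.20 in Nemo/TNFR1 dKO (adjusted p = 0.0437), 0.32 ± 0.20 in Nemo KO (adjusted p = 0.352) and 0.33 ± 0.22 in Nemo/TRAIL dKO (adjusted p = 0.448), and 4 of 11 fits without 1 array kept the call. It was also lost with quantile normalization (adjusted p = 0.0523) and with only the 2 groups compared (adjusted p = 0.116). Col8a2 and Col10a1, the growth plate collagen, were not called, with differences of -0.30 to -0.09.

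The multiplexins carry sugar chains and lie at basement membranes. Col18a1, the source of endostatin and a collagen that hepatocytes make, was lower in every Nemo-deficient array without passing the test. It measured 10.72, 10.67 and 10.54 in WT, 10.34, 10.33 and 10.33 in Nemo KO, 10.52, 10.16 and 10.24 in Nemo/TNFR1 dKO, and 10.26 and 10.31 in Nemo/TRAIL dKO. The differences were -0.31 ± 0.09 in Nemo KO (adjusted p = 0.0717), -0.34 ± 0.09 in Nemo/TNFR1 dKO (adjusted p = 0.0532) and -0.36 ± 0.10 in Nemo/TRAIL dKO (adjusted p = 0.0718). Without Nemo/TNFR1 dKO replicate 1, the highest of the Nemo-deficient arrays, all 3 passed (adjusted p = 0.0195, 0.00643 and 0.0186). This fit was picked out after the data were seen, and each difference passed in only 1 of the 11 fits without 1 array. Col15a1, the other multiplexin, differed by 0.17, 0.10 and 0.08 in Nemo KO, Nemo/TNFR1 dKO and Nemo/TRAIL dKO and was not called.

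The transmembrane collagens Col13a1, Col17a1, Col23a1 and Col25a1 were not called in any genotype. Col23a1 differed most in Nemo KO: it measured 6.89, 6.76 and 6.89 in WT, 6.69, 6.54 and 6.70 in Nemo KO, 6.85, 6.74 and 6.74 in Nemo/TNFR1 dKO, and 6.74 and 6.71 in Nemo/TRAIL dKO. The Nemo KO arrays lay below the WT arrays by a difference of -0.20 ± 0.07 (adjusted p = 0.116). Over the 4 genes and 3 genotypes the differences from WT ran from -0.20 to -0.06.

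The genes that rose did so with a shared order of arrays. Over the 11 genes called higher in at least 1 genotype, WT replicate 3 was the highest WT array in 9, the exceptions being Col4a2 and Col14a1. Nemo/TNFR1 dKO replicate 1 was the lowest array of its group in all 11 and the lowest of all 8 Nemo-deficient arrays in 7. Nemo/TRAIL dKO replicate 1 lay above replicate 2 in all 11. Over all 44 collagens WT replicate 3 was the highest WT array in 32. How often these orders hold over all probe sets was not counted, so they are not shown to be particular to collagens. With WT replicate 3 and Nemo/TNFR1 dKO replicate 1 both left out, which was decided after the data were seen, 12 collagens were called against WT in Nemo KO, 13 in Nemo/TNFR1 dKO and 11 in Nemo/TRAIL dKO, and the Col1a1 differences were 2.02, 2.41 and 1.95. The share of all probe sets called in that fit was not counted, so these counts do not show a gain particular to collagens.

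**Figure D3:**
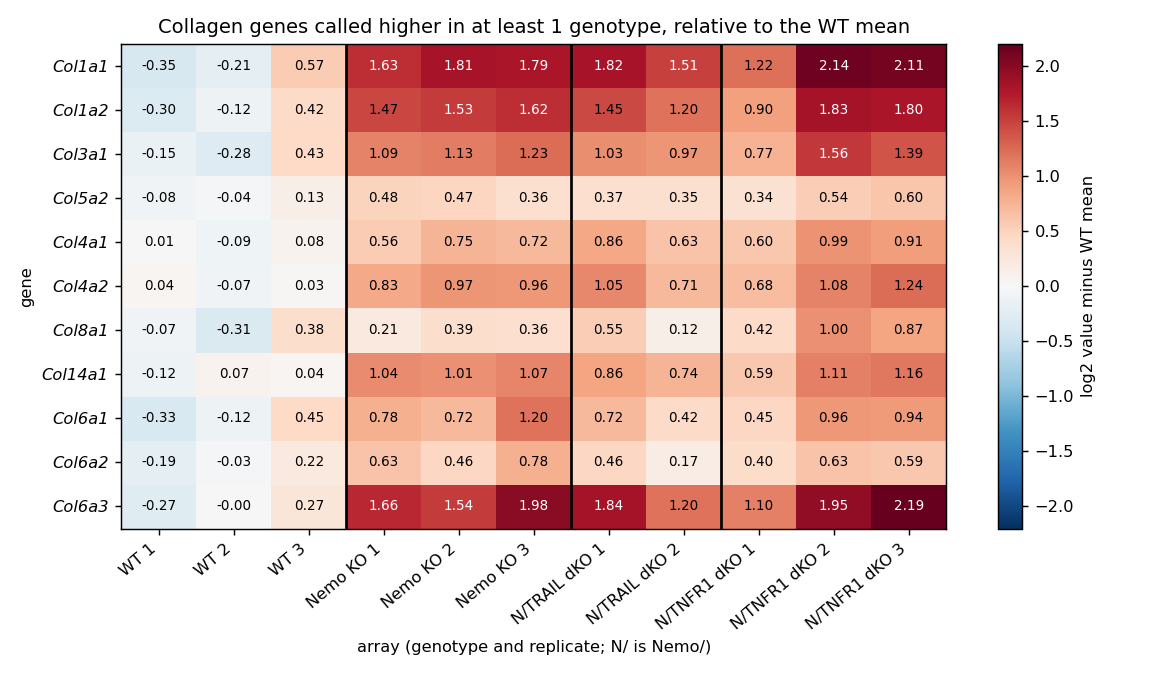
Log2 value minus the WT mean (colour and printed number) of the 11 collagen genes called higher in at least 1 genotype (vertical axis) in each of the 11 arrays (horizontal axis, N/ for Nemo/). In the Col1a1 line WT replicate 3 stands at 0.57 and Nemo/TNFR1 dKO replicate 1 at 1.22, where the other 2 arrays of its group stand at 2.14 and 2.11.

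Removing TRAIL or TNFR1 on top of Nemo gave no collagen call. Of the 44 genes 0 passed the limma test in Nemo/TNFR1 dKO against Nemo KO (all probe sets 0.0337%), 0 in Nemo/TRAIL dKO against Nemo KO (0.00562%) and 0 between both double knockouts (0.0478%). At an unadjusted p below 0.05 there was 1, 1 and 0, and the gene was Col6a5 in both comparisons with Nemo KO (-0.36 ± 0.13 in Nemo/TNFR1 dKO and -0.39 ± 0.15 in Nemo/TRAIL dKO). Since so few probe sets passed anywhere, these counts do not show that the genotypes are alike.

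The intervals give what these arrays could show. For Col1a1 the difference from Nemo KO was 0.08 in Nemo/TNFR1 dKO with a 95% interval from -0.55 to 0.72, and in Nemo/TRAIL dKO -0.08 with an interval from -0.79 to 0.63. For Col3a1 the intervals ran from -0.41 to 0.57 and from -0.70 to 0.39, and for Col4a1 from -0.10 to 0.41 and from -0.22 to 0.35. Col8a1 had the largest difference from Nemo KO upwards, 0.44 in Nemo/TNFR1 dKO (interval -0.0078 to 0.89, adjusted p = 0.720). In Nemo/TRAIL dKO, Col6a1 differed from Nemo KO by -0.33 (interval -0.89 to 0.23) and Col6a2 by -0.31 (interval -0.64 to 0.02). Between both double knockouts Col1a1 differed by 0.16 (interval -0.55 to 0.87).

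**Figure D4:**
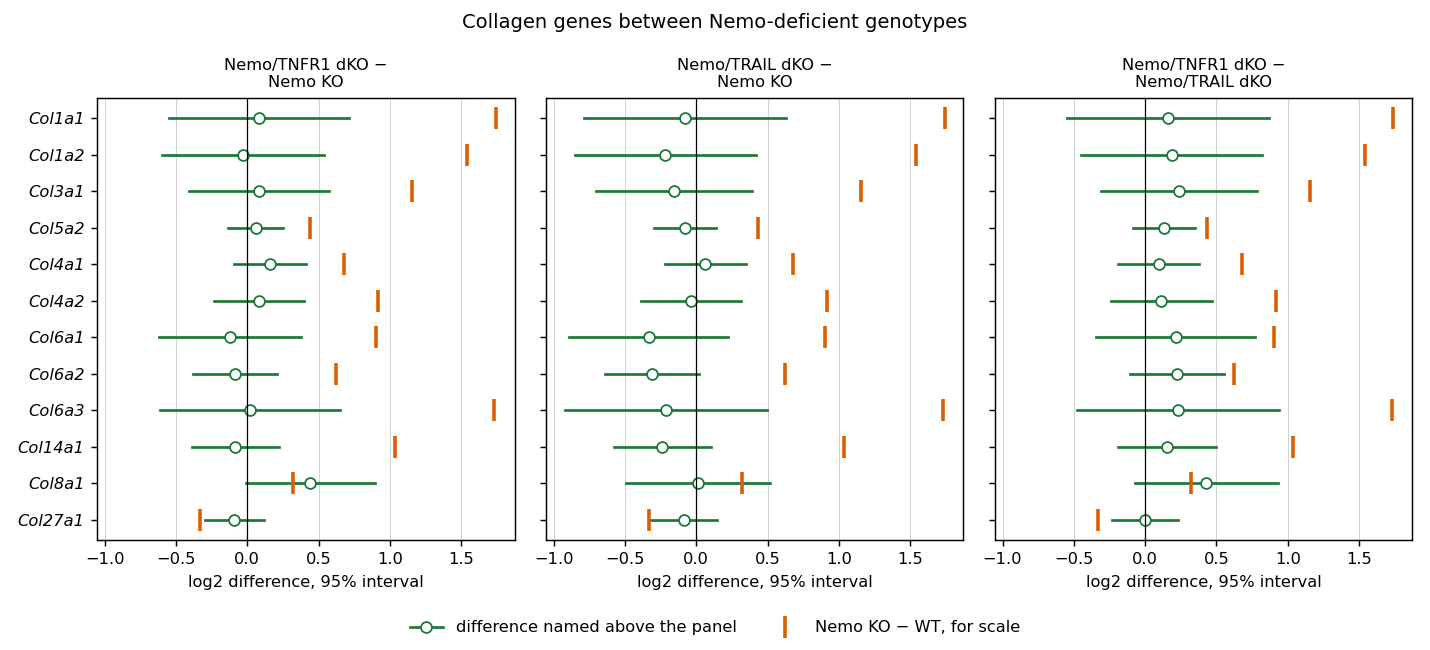
Differences between Nemo-deficient genotypes (circles, horizontal axis in log2 units, with 95% intervals) for the 12 collagen genes called against WT (vertical axis); upright marks show Nemo KO minus WT for scale. For Col1a1 the mark stands at 1.74 and the intervals run from -0.55 to 0.72, -0.79 to 0.63 and -0.55 to 0.87, while for Col8a1 the mark stands at 0.32. The marks give size only, since loss of a rise would be a difference from Nemo KO of the opposite sign.

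Genes that handle collagen were followed as lists, given by counts. Of all probe sets 6.08%, 5.83% and 4.91% were called higher than WT in Nemo KO, Nemo/TNFR1 dKO and Nemo/TRAIL dKO, and 3.21%, 3.35% and 2.64% lower. Of 22 measured genes for modification, folding and export in the cell, 6 were called higher in Nemo KO, 6 in Nemo/TNFR1 dKO and 4 in Nemo/TRAIL dKO, and 1 was called lower, Colgalt2 in Nemo/TNFR1 dKO (-0.70 ± 0.17, adjusted p = 0.0317, named after its value was seen). Their median differences were 0.17, 0.10 and 0.11, where the medians of all probe sets were -0.054, -0.039 and -0.045. In Nemo KO the largest rises were in Plod2, a lysyl hydroxylase of collagen telopeptides (1.31 ± 0.17, adjusted p = 0.00186), P3h2, a prolyl 3-hydroxylase (1.25 ± 0.18, adjusted p = 0.00289), and Creb3l1, a transcription factor of collagen secretion (1.15 ± 0.17, adjusted p = 0.00324). All 3 were also called in both double knockouts. The prolyl 4-hydroxylase subunits, named after their values were seen, were not called: P4ha1 differed by 0.91 ± 0.25 in Nemo KO (adjusted p = 0.0551), and P4ha2, P4ha3 and P4hb by -0.05, -0.09 and 0.06.

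Outside the cell, 5 of 11 measured genes of propeptide removal and crosslinking were called higher in Nemo KO, 5 in Nemo/TNFR1 dKO and 4 in Nemo/TRAIL dKO, with medians of 0.21, 0.10 and 0.18. The crosslinking enzymes Lox (1.83 ± 0.39, adjusted p = 0.0177) and Loxl1 (1.46 ± 0.24, adjusted p = 0.00546) and Pcolce, an enhancer of procollagen cleavage (1.08 ± 0.13, adjusted p = 0.00141), rose most in Nemo KO and were called in both double knockouts. Bmp1, the C-propeptide protease that Pcolce enhances, was called lower in each genotype (-0.32, -0.28 and -0.36 in Nemo KO, Nemo/TNFR1 dKO and Nemo/TRAIL dKO, named after its values were seen).

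Of 13 proteoglycans and glycoproteins of collagen fibrils, 7 were called higher in Nemo KO, 9 in Nemo/TNFR1 dKO and 7 in Nemo/TRAIL dKO, with medians of 0.87, 0.79 and 0.70 and 0 called lower. Lum, a keratan sulphate proteoglycan of fibrils, rose by 2.40 ± 0.29 in Nemo KO (adjusted p = 0.00133), Thbs2 by 1.37 ± 0.16 (adjusted p = 0.00114) and Postn by 0.94 ± 0.24 (adjusted p = 0.0367). Of 9 collagen receptors 5, 4 and 4 were called higher in the same order and 0 lower. Ddr1, a receptor tyrosine kinase for collagen, rose by 1.56 ± 0.24 in Nemo KO (adjusted p = 0.00438), Mrc2, an endocytic collagen receptor, by 1.17 ± 0.17 (adjusted p = 0.00322) and Lair1, an inhibitory receptor of immune cells, by 1.06 ± 0.14 (adjusted p = 0.00175). No gene of these 4 lists was called between Nemo-deficient genotypes.

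Markers of the cells that can make collagen are given beside these results. The shares of all probe sets called higher or lower than WT are those given with the collagen-handling lists. The share at an unadjusted p below 0.05 was not counted. Of 10 stellate cell markers 6 were called higher in Nemo KO, 6 in Nemo/TNFR1 dKO and 4 in Nemo/TRAIL dKO, 0 lower, and their mean level was 8.63 to 8.65 in WT arrays, 9.21 to 9.46 in Nemo KO, 9.26 to 9.31 in Nemo/TNFR1 dKO and 9.16 to 9.17 in Nemo/TRAIL dKO. Of 9 portal fibroblast and mesothelial markers 5, 3 and 1 were called higher in Nemo KO, Nemo/TNFR1 dKO and Nemo/TRAIL dKO. Their mean level was 6.69 to 7.15 in WT, highest in WT replicate 3, and 7.17 to 7.43 in the other arrays. Of 5 contractile myofibroblast markers 0, 1 and 1 were called higher (2, 1 and 1 at an unadjusted p below 0.05). The mean of these ran from 6.44 to 7.89 within WT, again highest in WT replicate 3, which covers the range of 7.13 to 7.74 in the Nemo-deficient arrays. Their part in the collagen differences was not tested.

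Acta2, which marks activated stellate cells and smooth muscle, differed from WT by 0.22 ± 0.54 in Nemo KO, 0.74 ± 0.54 in Nemo/TNFR1 dKO and 0.55 ± 0.60 in Nemo/TRAIL dKO and was not called (adjusted p = 0.829, 0.463 and 0.66; named after its values were seen). Of 6 macrophage markers 4, 3 and 3 were called higher in the same order, and their mean level was 7.71 to 7.88 in WT arrays and 8.35 to 8.73 in the others. Of 8 endothelial markers 0, 1 and 2 were called higher and 0, 0 and 1 lower (2, 3 and 3 at an unadjusted p below 0.05). Of 5 cholangiocyte markers 0, 0 and 1 were called higher (2, 2 and 2 at an unadjusted p below 0.05). Of 8 defining genes of cartilage, epidermis and skeletal muscle, 0 were called in any of the 3 comparisons with WT (0, 0 and 1 at an unadjusted p below 0.05), and their mean stayed between 5.42 and 5.60. Lox, Pcolce, Lum and the collagens themselves are made by stellate cells and fibroblasts too, so these lists are not independent of each other.

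**Figure D5:**
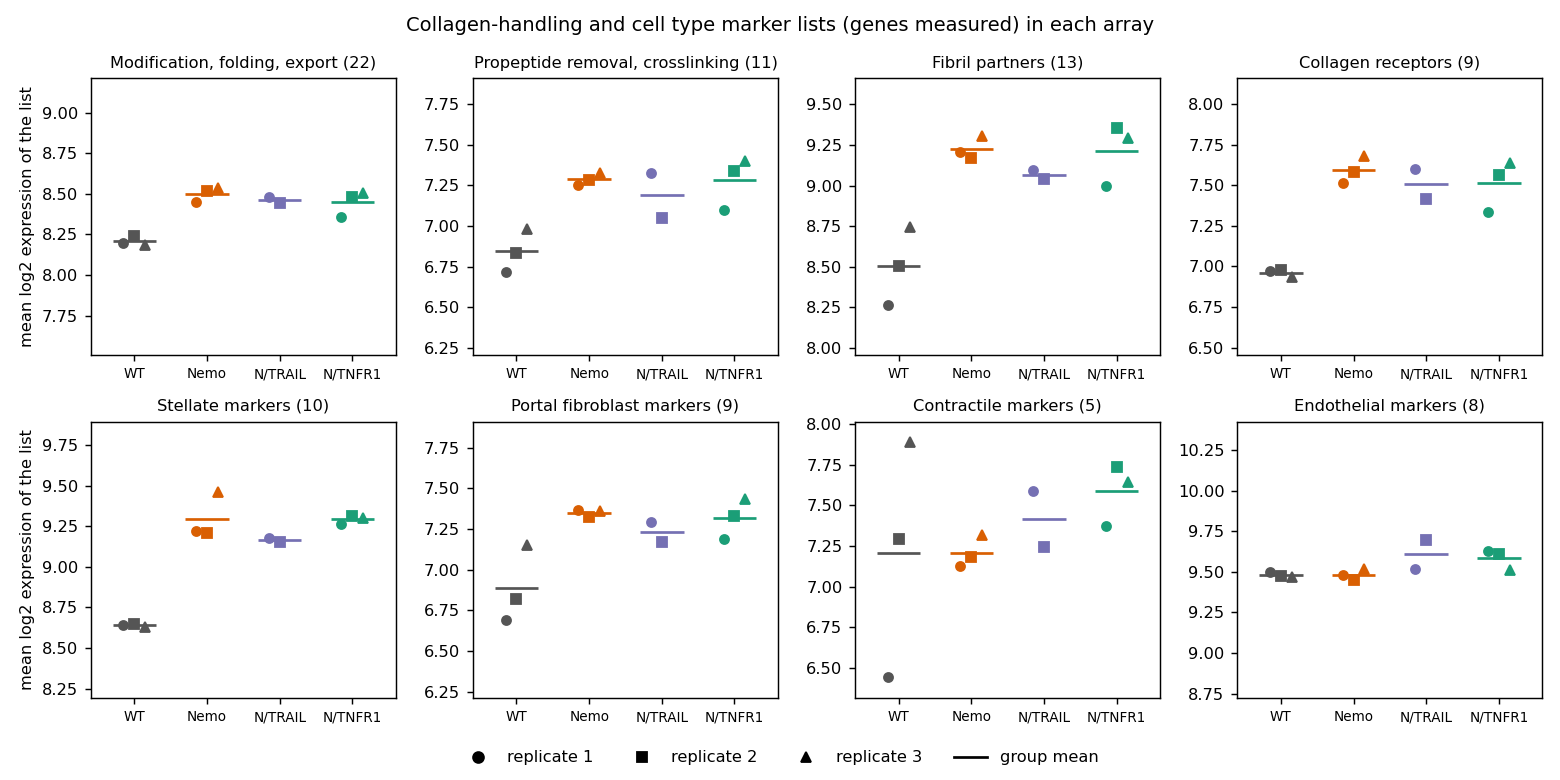
Mean log2 expression (vertical axis, each panel spanning 1.7 log2 units) of 8 lists of genes that handle collagen or mark cell types, by genotype (horizontal axis; N stands for Nemo); symbols are replicates, lines group means, and the number of measured genes is in each panel title. Stellate markers stay at 8.63 to 8.65 in WT and reach 9.16 to 9.46 in the other arrays, whereas contractile markers range from 6.44 to 7.89 within WT.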

How the data were processed

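The authors deposited log2 expression values for 35556 probe sets on 11 one-colour Affymetrix mouse gene arrays, made with RMA per the submitters' processing notes (version: not given in the sources used here), and they were used as deposited. RMA brings the arrays close to 1 distribution, so a change shared by all genes would not show. The deposited array medians ran from 6.26 (WT replicate 1) to 6.32 (Nemo KO replicate 1). Upper quartiles ran from 8.05 (WT replicate 3) to 8.16 (Nemo KO replicate 3). Names came from the platform annotation (21789 probe sets with 1 symbol, 1621 with several, 12146 with none), and 21698 were matched to RefSeq. With R 4.3.3 and limma 3.58.1, 1 mean per genotype was fitted to all arrays and probe sets (7 residual and 2.51 prior degrees of freedom). Tests were two-sided, with p-values adjusted by Benjamini-Hochberg over all probe sets within each of 6 comparisons and called below 0.05. The median SE was 0.102 where both groups had 3 arrays and 0.114 where 1 had 2. The model was tested on simulated data. The array names carry a code that is the same in WT and Nemo KO and differs in each double knockout, and array numbers follow genotype. The labels leave the code unexplained, and its effect and that of genotype cannot be told apart for the double knockouts.

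The collagen genes and gene lists were chosen with earlier results of these data known. Values in every array are given for Col1a1, Col1a2, Col3a1, Col4a1 and Col4a2, for up to 3 called genes per class with the largest difference in Nemo KO against WT (or the largest uncalled one), and for genes called lower than WT; lists are given by counts and up to 3 called genes. Col8a1 stands for its class under this rule. Col5a2, Col12a1 and the second probe set of Col6a5 fall outside it. On the lists Fkbp10, Adamts2, Loxl2 and Gp6 had no probe set with 1 symbol. Same-numbered replicates of different genotypes did not deviate together (correlations from -0.117 to 0.044 over 15 pairs), so the numbers do not pair samples. Alternative settings covered the moderation (robust, or with an intensity trend), the scaling (quantile, or centring on medians), low-value filters (25th percentile, median), the model (array weights, a replicate block, 2 groups alone), the mean of all probe sets of a gene, an adjusted p below 0.01, a fold of at least 1.5 and each array left out.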

Additional observations from a re-analysis of the deposited data

Results flagged for a closer look

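Col6a5, which encodes a further type VI alpha chain, has a second probe set that the comparisons above did not use, and it was singled out because it gave a signal that the other probe set did not give. It measured 5.62, 6.005 and 5.86 in WT, 6.63, 6.24 and 7.29 in Nemo KO, 5.45, 5.93 and 5.65 in Nemo/TNFR1 dKO, and 5.81 and 5.89 in Nemo/TRAIL dKO. In Nemo KO against WT the difference was 0.89 ± 0.24 (limma, adjusted p = 0.0446), while the probe set used above gave 0.19 ± 0.13 (adjusted p = 0.397). Against Nemo KO it differed by -1.04 ± 0.24 in Nemo/TNFR1 dKO (adjusted p = 0.418) and by -0.87 ± 0.26 in Nemo/TRAIL dKO (adjusted p = 1), so neither difference passed the test. Groups of 2 or 3 arrays were too small to test for single outlying samples.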

How the results depend on the processing

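No called difference changed sign under any setting. The share of all probe sets called was not counted under the alternative settings. Of the 44 genes, counts called against WT (either direction) left the range of 1.5 times the reported 10, 11 and 8 as follows. At an adjusted p below 0.01, Nemo KO had 6 and Nemo/TRAIL dKO 2, and with only the 2 groups compared 7 in Nemo/TNFR1 dKO and 4 in Nemo/TRAIL dKO. Leaving out 1 array gave 8 to 12 in Nemo KO, 8 to 14 in Nemo/TNFR1 dKO and 0 to 11 in Nemo/TRAIL dKO, and 0 in the other 3 comparisons. With the replicate block the counts were 11, 11 and 8, which is not the same set of genes: Col27a1 was gained in Nemo KO, and in Nemo/TNFR1 dKO Col8a1 was lost (adjusted p = 0.0597) and Col6a1 gained. The family's median difference from WT was small and changed sign or size. With the filter at the median it was 0.0325 in Nemo KO, 0.0011 in Nemo/TNFR1 dKO and -0.014 in Nemo/TRAIL dKO. That filter kept 32 of the 44 genes, so these are medians over fewer genes. With quantile normalization the median of all 44 was -0.096 in Nemo/TRAIL dKO. With both WT replicate 3 and Nemo/TNFR1 dKO replicate 1 left out, chosen after seeing the data, it was -0.031 in Nemo KO and -0.011 in Nemo/TNFR1 dKO. Leaving out 1 array moved it from -0.104 to -0.031 in Nemo KO, from -0.065 to 0.0044 in Nemo/TNFR1 dKO and from -0.085 to -0.037 in Nemo/TRAIL dKO; the cause was not tested. The 12 genes called against WT gave 29 calls, and these were lost in 86 of 696 checks under other settings, with 17 of the 29 lost at least once. Among these settings, an adjusted p below 0.01 and a fold of at least 1.5 are stricter thresholds on the same fit, not refits. Of 16 results against WT that were not called among the genes named with values, 10 passed under at least 1 setting. The small number of arrays limits what could be called.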

Other observations

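Exactly equal values across arrays were frequent among the collagen genes that were not called. Of the 32 genes called in no comparison with WT, 19 had the same deposited value in at least 3 of the 11 arrays (59.4%), against 0 of the 12 called genes and 7676 of all 35556 probe sets (21.6%). Col26a1 had 1 value, 6.64, in 6 arrays, and Col16a1 and Col6a6 each had 1 value in 5 arrays. Equal values in several arrays limit how far genotypes can differ, so this split is not independent of the calls. The share of 21.6% takes in called and uncalled probe sets at all signal levels, so it is not a like comparison. The equal values were noticed after the tests were run, and their cause was not tested.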
